A study of Saccharomyces cerevisiae with 3 samples.

Results

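The 10 genes described here encode the enzymes, transporters and activator with which budding yeast (Saccharomyces cerevisiae) turns ethanol, acetate and lactate into sugar. They are FBP1, PCK1, ICL1, MLS1, MDH2, SFC1, JEN1, ACS1, IDP2 and CAT8, chosen by name from the platform's probe-to-gene table. All 10 were found, each with a single probe set, among 5449 S. cerevisiae genes measured with 5498 probe sets. The cultures were grown at 30 °C, and their total RNA was hybridised to 3 single-colour Affymetrix arrays. The titles of the 2 arrays labelled RPA12 deletion give synthetic medium and stationary phase, and the title of the wild-type array gives neither. The labels give 2 arrays the genotype RPA12 delta (replicates 1 and 2) and 1 array the genotype wild type, without treatment in either group. The RPA12 product is a small subunit of the RNA polymerase that transcribes ribosomal RNA genes. All 3 arrays carry the same labelled background, the haploid strain BY4741 of mating type a with his3, leu2, met15 and ura3 deletions. The growth protocol entered for the wild-type array names RPA12-deleted cells, and its genotype label was followed. Cultures, clones and days are not given, so the spread between the arrays may be technical.

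When glucose runs out, yeast lives on the ethanol and organic acids it made before. Acetate is activated to acetyl-CoA, the glyoxylate cycle joins acetyl units into 4-carbon acids without loss of carbon dioxide, and gluconeogenesis runs from oxaloacetate to hexose phosphate. Glucose represses these genes through the Mig repressors, while the kinase Snf1 and the zinc-cluster activators Cat8 and Sip4 switch them on when glucose is gone. Glucose also sends several of the enzymes to degradation by the Gid ubiquitin ligase, which a transcript measurement does not see.

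The labels and the arrays disagree on points that bear on every direction below. RPA12 itself read 5.74 and 5.79 where it is labelled deleted but 3.60 in the wild type, the opposite of its label, although where its probes lie within the gene was not checked. MET17, another name of MET15, read 9.43 and 9.36 against 1.56, and LYS2, which the labels do not list as changed, read 1.42 and 0.97 against 6.08. HIS3, labelled deleted on all 3 arrays, read 9.27 and 9.30 against 6.73. LEU2 (1.75 and 1.75 against 1.91) and URA3 (1.25 on all 3 arrays) were low throughout, as their labelled deletions have it. Of 5 measured genes specific to α cells 4 rose (median difference 4.74 on the log2 scale), and HMRA1, of a cells, read 1.25 and 1.09 against 7.41, while the 8 measured a-cell genes had a median of 0.07. Poly-A spike-ins, transcripts of another organism added before labelling, were lower on the arrays labelled RPA12 deletion for all 36 probe sets (median -3.81), and hybridization controls for 26 of 27 (median -1.48). The part that strain, mating type, growth state or array processing plays in the values below was not tested. With a single wild-type array none of them can be told apart from the genotype. The groups are called RPA12 deletion and wild type here as the labels have it.

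All 10 genes were lower on both RPA12 deletion arrays than on the wild-type array, by 3.75-fold to 18.1-fold. The values are log2 summaries made by the authors with RMA, and the difference is the mean of the 2 RPA12 deletion arrays minus the wild-type array. A gene is said to have fallen or risen where limma's Benjamini-Hochberg adjusted p was under 0.05 and the difference was at least 2-fold. By this rule 10 of 10 fell, with a median difference of -3.37, against 10.2% of all tested probe sets that fell and 23.8% that rose. The median over all tested probe sets was 0.19. Among all called probe sets 70.0% rose, and 56.6% after another round of quantile normalization or 55.9% after median centring, so the balance over the whole array depends on the scaling, whereas the 10 genes fell under each of them. The groups did not overlap for any of the 10: the highest RPA12 deletion value of a gene lay below its wild-type value. Such separation is easily met with 2 arrays against 1, and the RPA12 deletion arrays were equal for 44.2% of tested probe sets. Its share over all tested probe sets was not counted, so the separation is not read as particular to the 10 genes. Every value of the 10 genes was above background, here the level under which 95% of the array's probe sets for another yeast species lay (1.42 on each RPA12 deletion array and 1.84 on the wild-type array).

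**Figure D1:**
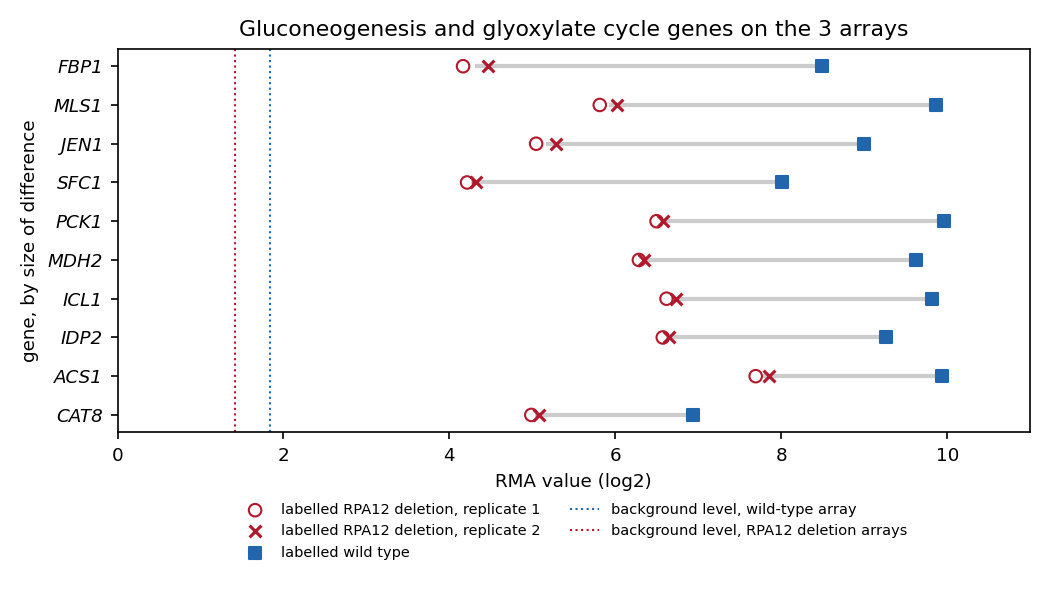
RMA values (log2, horizontal axis) of the 10 genes on each array, in order of the size of their difference. Open circles and crosses are replicates 1 and 2 labelled RPA12 deletion, squares the wild-type array, and dotted lines the background levels of 1.42 and 1.84. The RPA12 deletion arrays lie close together for every gene and to the left of the wild-type square.

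Gluconeogenesis proper has 2 enzymes that glycolysis does not share. FBP1 (YLR377C), fructose-1,6-bisphosphatase, which removes a phosphate on the way to glucose 6-phosphate, read 4.16 and 4.46 on the RPA12 deletion arrays and 8.49 on the wild-type array. Both arrays lay far below the wild type, although the gap between them was the widest of the 10 genes. The difference was -4.18 (SE 0.23, limma adjusted p = 0.0232), or 18.1-fold lower, the largest of the group. PCK1 (YKR097W), phosphoenolpyruvate carboxykinase, which turns oxaloacetate into phosphoenolpyruvate, read 6.50 and 6.57 against 9.96. The arrays labelled RPA12 deletion nearly coincided, and PCK1 fell 10.7-fold (difference -3.42, SE 0.05, limma adjusted p = 0.00690).

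The glyoxylate cycle enzymes fell by similar amounts. ICL1 (YER065C), isocitrate lyase, which splits isocitrate into succinate and glyoxylate, read 6.62 and 6.74 against 9.82. MLS1 (YNL117W), malate synthase, which joins glyoxylate with acetyl-CoA, read 5.81 and 6.02 against 9.87. The consecutive steps of the cycle were thus both lower, MLS1 by 15.4-fold (difference -3.95, SE 0.16, limma adjusted p = 0.0175) and ICL1 by 8.81-fold (difference -3.14, SE 0.09, limma adjusted p = 0.0124). MDH2 (YOL126C), the cytosolic malate dehydrogenase that makes oxaloacetate for Pck1, read 6.28 and 6.35 against 9.63. Its difference of -3.31 (SE 0.05, limma adjusted p = 0.00642) is a 9.93-fold fall.

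The transporters of the group were also lower. JEN1 (YKL217W), the plasma membrane carrier that takes up lactate and pyruvate, read 5.05 and 5.28 against 9.00, a 14.3-fold fall (difference -3.84, SE 0.18, limma adjusted p = 0.0199). SFC1 (YJR095W), the mitochondrial carrier that exchanges the succinate of the glyoxylate cycle for fumarate, read 4.21 and 4.32 against 8.01, a 13.4-fold fall (difference -3.75, SE 0.08, limma adjusted p = 0.00920). The lactate and succinate carriers thus fell by amounts whose ranges over the RPA12 deletion arrays overlapped. These ranges were -3.95 to -3.72 for JEN1 and -3.80 to -3.70 for SFC1.

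The enzymes that supply acetyl-CoA and NADPH fell less. ACS1 (YAL054C), the acetyl-CoA synthetase used for growth on acetate, read 7.69 and 7.86 against 9.94. IDP2 (YLR174W), the cytosolic NADP-dependent isocitrate dehydrogenase, read 6.57 and 6.65 against 9.26. IDP2 fell 6.26-fold (difference -2.65, SE 0.06, limma adjusted p = 0.00981) and ACS1 4.48-fold (difference -2.17, SE 0.13, limma adjusted p = 0.0248). The activator CAT8 (YMR280C), which binds the carbon source-responsive elements of gluconeogenic and glyoxylate cycle promoters, had the smallest difference of the 10. It read 4.99 and 5.08 against 6.94, a 3.75-fold fall (difference -1.91, SE 0.07, limma adjusted p = 0.0155).

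Ordered by their difference, the genes ran FBP1, MLS1, JEN1, SFC1, PCK1, MDH2, ICL1, IDP2, ACS1 and CAT8. Over the RPA12 deletion arrays, each of the first 4 overlapped its neighbours within that set, so their order is not settled. From SFC1 onward no gene overlapped the next in the order, the widest gap being 0.49 between ICL1 and IDP2, though this spread covers only the 2 RPA12 deletion arrays and not the wild type. Among all 5498 differences ranked from the lowest, FBP1 stood at 20 and CAT8 at 220, and 7 of the 10 were among the lowest 100. At least 8-fold lower were 7 of the 10, compared with 79 probe sets, 1.44%, of all tested.

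**Figure D2:**
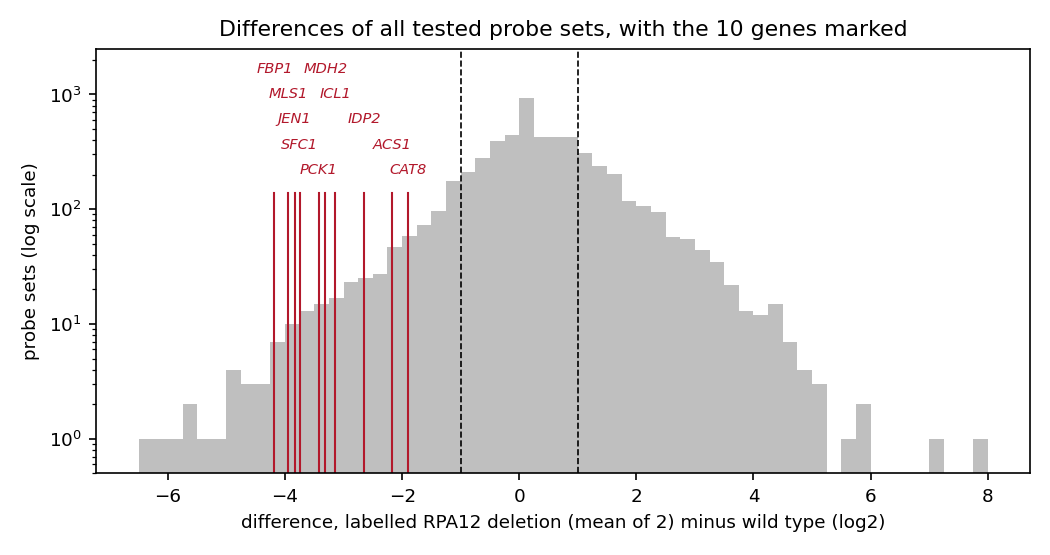
Differences (log2, horizontal axis) of all 5498 tested probe sets, with the number of probe sets in each bin on a log scale. Red lines mark the 10 genes, from FBP1 at -4.18 to CAT8 at -1.91, and dashed lines mark a 2-fold difference. The 10 genes lie in the lower tail, past the 2-fold line.

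The RPA12 deletion arrays also differed from each other in a common direction for these genes. Replicate 2 was higher than replicate 1 for 10 of 10, by 0.07 (MDH2) to 0.30 (FBP1), and thus nearer to the wild type. Over all tested probe sets 31.0% were higher on replicate 2, 24.8% were lower, and the other 44.2% were equal to every deposited digit. Among the 562 probe sets that fell, 274 (48.8%) were higher on replicate 2. These gaps are small beside the differences from the wild type, and the median difference of the 10 genes was -3.40 with replicate 1 alone and -3.33 with replicate 2 alone.

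Several of the enzymes have isozymes in other compartments or with other regulation, and their transcripts differed less or went the other way. IDP1, the mitochondrial NADP-dependent isocitrate dehydrogenase, read 8.87 on both RPA12 deletion arrays and 8.92 on the wild-type array, so that IDP2 fell 6.03-fold beyond it. IDP3, the peroxisomal form, read 5.49 and 5.71 against 6.92, a difference of -1.31 that missed the threshold (limma adjusted p = 0.0572) and met it after both other scalings. MDH1, the mitochondrial malate dehydrogenase, fell 2.37-fold, from 9.79 to 8.56 and 8.53. MDH3, the peroxisomal form, read 8.56 and 8.59 against 8.89. The cytosolic form MDH2 thus had the largest difference of its family, 4.19-fold beyond that of MDH1 and 8.01-fold beyond that of MDH3, and it was the largest on each RPA12 deletion array.

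ACS2, the acetyl-CoA synthetase that cells need on glucose, read 6.62 and 6.59 against 7.47, under 2-fold apart (difference -0.87, and -1.12 after median centring). ICL2, a mitochondrial 2-methylisocitrate lyase related to Icl1, fell 5.74-fold, reading 5.63 on both RPA12 deletion arrays and 8.15 on the wild-type array. DAL7, the second malate synthase, which serves the breakdown of allantoin, went the opposite way to MLS1. It read 6.49 and 6.58 against 4.57 and rose 3.90-fold (difference 1.96, limma adjusted p = 0.0154). Of the 7 isozymes measured 2 fell, 1 rose and 4 were not called, with a median difference of -0.87, and median centring raised the falls to 4. Near-identical stretches between isozymes could share signal, which was not tested.

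**Figure D3:**
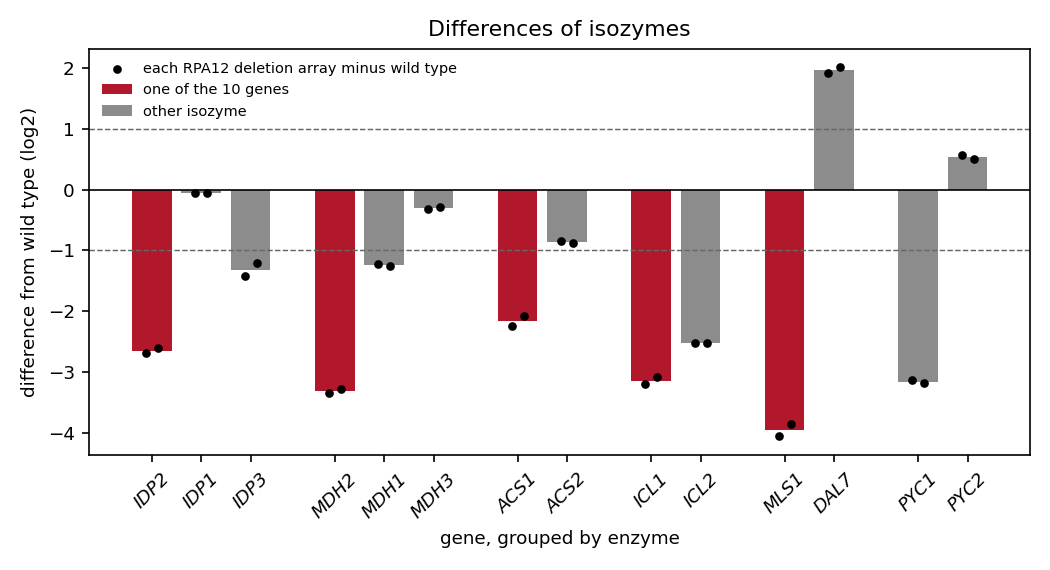
Differences from the wild-type array (log2, vertical axis) for enzymes with several forms. Bars are means over the RPA12 deletion arrays, points each of those arrays, red bars belong to the 10 genes and grey bars to other forms, and dashed lines mark a 2-fold difference. IDP1 and MDH3 lie near 0, DAL7 lies above 0, and each red bar is the lowest of its enzyme.

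Steps that the glyoxylate cycle shares with the mitochondrial cycle were mostly lower too, in a list that also holds the pyruvate carboxylases, CIT3 and AGX1. Of 7 genes measured 6 fell and 1 was not called (median difference -1.25). PYC1, a pyruvate carboxylase that makes oxaloacetate from pyruvate, read 6.79 and 6.73 against 9.91 and fell 8.90-fold. Its paralog PYC2 read 7.99 and 7.91 against 7.42, a difference of 0.53 that was under 2-fold. CIT3, the mitochondrial methylcitrate synthase, read 5.01 and 5.35 against 8.52, a 10.1-fold fall whose limma adjusted p of 0.0339 became 0.0541 with a trended, robust prior. ACO1, aconitase, fell 3.45-fold, CIT1, the main mitochondrial citrate synthase, 2.38-fold, and AGX1, which makes glycine from glyoxylate, 2.28-fold. CIT2, the peroxisomal citrate synthase of the glyoxylate cycle, read 9.64 and 9.74 against 10.71, and its 2.02-fold fall went under 2-fold without replicate 1 (-0.97) and after renewed quantile normalization (-0.96).

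Genes for acetate and ammonium export, the carnitine shuttle and other uses of non-fermentable carbon had a median difference of -3.02, close to that of the 10 genes. Of 12 measured, 10 fell and 1 rose. ATO2, a plasma membrane protein of the acetate and ammonium transporter family, read 5.03 and 5.25 against 9.80, a 25.2-fold fall. POT1, the peroxisomal thiolase of β-oxidation, fell 17.5-fold, YAT1, a carnitine acetyltransferase, 11.7-fold, and MBR1, a gene of growth on glycerol, 9.46-fold. CTP1, the mitochondrial citrate carrier, was named after its values were seen as the only rise of this list, from 4.34 to 6.01 and 6.16. ADY2, an acetate permease and likewise named afterwards, read 7.92 and 8.28 against 9.64 and missed the threshold (limma adjusted p = 0.0842), which it met after renewed quantile normalization (0.0498) and after median centring (0.0141). All 12 genes were higher on replicate 2 than on replicate 1.

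Genes that bring in lactate, ethanol, acetaldehyde and glycerol gave 7 falls and no rise among 9 (median -2.58). STL1, the glycerol importer, read 2.42 and 1.92 against 7.34, a 36.1-fold fall whose limma adjusted p of 0.0315 became 0.0509 with the trended, robust prior. ALD6, the cytosolic aldehyde dehydrogenase that makes acetate, read 5.11 and 5.21 against 9.93, a 27.4-fold fall. CYB2, the L-lactate dehydrogenase of the mitochondrial intermembrane space, fell 8.51-fold, and GUT1, glycerol kinase, 7.40-fold. The 2 genes not called, named after their values were seen, were ADH2, the gene for ethanol, and DLD2. ADH2 had a difference of -1.14 that missed the threshold (limma adjusted p = 0.0750) and met it after both other scalings. DLD2 had a difference of -0.02. JEN1 and CYB2, which act in turn on lactate, were thus both lower.

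**Figure D4:**
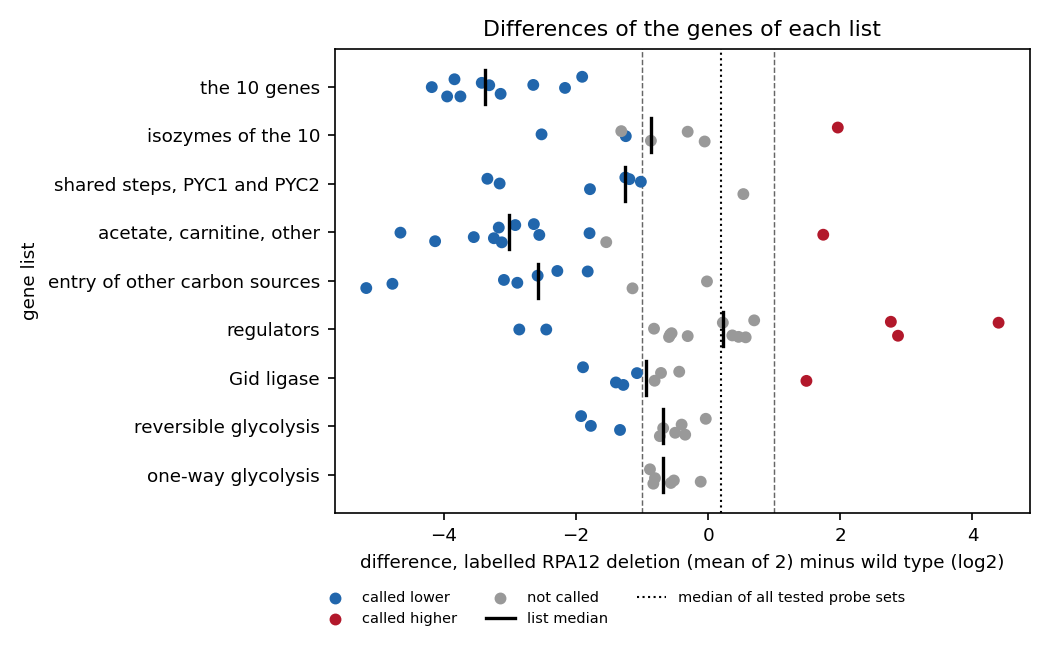
Differences (log2, horizontal axis) of every measured gene of each list. Blue points fell, red points rose, grey points were not called, black bars are list medians, the dotted line is the median of all tested probe sets (0.19) and dashed lines mark a 2-fold difference. The medians of the 10 genes (-3.37) and of the acetate and carnitine list (-3.02) are the lowest, the lowest single point is STL1 at -5.17 in the list for entry of other carbon sources, and the regulators lie on both sides.

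Regulators of these genes went in both directions, with 2 falls and 3 rises among 15 and a median difference of 0.22. These shares and this median are close to those of all tested probe sets (10.2% fell, 23.8% rose, median 0.19), so the list as a whole did not stand apart and the values below are those of single genes. SIP4, the zinc-cluster activator that binds the same elements as Cat8, read 4.46 and 4.41 against 7.29 and fell 7.25-fold (limma adjusted p = 0.00575). ADR1, an activator of ethanol and fatty acid use, read 3.71 and 3.84 against 6.22 and fell 5.46-fold (limma adjusted p = 0.0171). CAT8, SIP4 and ADR1 were thus all lower, whereas ERT1 rose and RDS2, HAP4, OAF1 and PIP2 were not called, as given below. MIG2, a repressor that is itself made in glucose, read 5.54 and 5.53 on the RPA12 deletion arrays while its wild-type value of 1.14 was not above background, a rise of at least 12.9-fold (limma adjusted p = 3.48e-04). MIG3, a related repressor, read 5.61 and 5.64 against 2.75 and rose 7.33-fold. MIG1, the main repressor of the family, read 6.21 and 6.14 against 5.81, a difference of 0.37 that was not called. ERT1, a zinc-cluster regulator related to Rds2, had a mean of 5.07 ± 0.091 (SD, n = 2) against 2.30 and rose 6.80-fold.

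The other regulators were under 2-fold apart in these values. SNF1, the kinase, had a difference of 0.22, its subunits SNF4 and GAL83 0.70 and 0.46, and HXK2, the hexokinase that takes part in glucose repression, 0.57. HAP4, the activating subunit of the respiratory Hap complex, had a difference of -0.59, RDS2, a regulator of gluconeogenic genes, -0.57, and OAF1 and PIP2, the oleate activators, -0.55 and -0.31. REG1, which targets a phosphatase to Snf1, had a difference of -0.82, which passed 2-fold after renewed quantile normalization (-1.07) and after median centring (-1.07). A transcript level does not give the activity of a kinase or of a protein held by phosphorylation.

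The Gid ubiquitin ligase marks Fbp1, Pck1, Icl1 and Mdh2 for degradation when glucose returns. Of its 8 measured genes 4 fell and 1 rose (median -0.94). VID24, also called GID4, the receptor that recognises these enzymes, read 7.21 and 7.14 against 5.69 and rose 2.80-fold (limma adjusted p = 0.0160). RMD5, a RING subunit, fell 3.71-fold from 6.23 to 4.26 and 4.42, VID28 2.63-fold and GID7 2.43-fold. The receptor and these subunits thus moved in opposite directions, while 4 of the enzymes it recognises were lower as transcripts.

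The enzymes of glycolysis that gluconeogenesis opposes or runs backwards had list medians of -0.68 each, against -3.37 for the 10 genes, although ENO1 at -1.92 lay as low as CAT8 at -1.91. Of the 6 genes of the opposed steps and sugar phosphorylation none was called. PFK1 and PFK2, the phosphofructokinase subunits that work against Fbp1, had differences of -0.83 and -0.11, so that FBP1 fell 10.2-fold and 16.8-fold beyond them. CDC19, the main pyruvate kinase, which works against Pck1, had a difference of -0.56, and PCK1 fell 7.27-fold beyond it. PYK2, the minor pyruvate kinase, HXK1 and GLK1, which phosphorylate glucose, had differences of -0.80, -0.88 and -0.52, and after median centring PFK1, PYK2 and HXK1 were called lower. Of 9 genes of the reversible steps 3 fell and none rose (median -0.68). ENO1 fell 3.79-fold and ENO2 2.52-fold, both enolases, and TDH1, a glyceraldehyde-3-phosphate dehydrogenase, 3.42-fold, while FBA1, aldolase, had a difference of -0.73. The enolase genes, and likewise the TDH genes, are near-identical in sequence, so their probe sets may share signal.

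The patterns most like that of the 10 genes, by the Euclidean distance between the 3 values of a gene around its own mean and the median of the 10, were those of ACH1, LEE1, ERR3, VEL1 and TAT1. With 3 arrays, of which 2 nearly coincide, this measure finds genes with a difference near the group's median. ACH1, a mitochondrial CoA transferase that acts on acetate, read 7.26 and 7.28 against 10.58 (distance 0.06). The other 4 had differences between -3.36 and -3.44, and VEL1 was the one with the lowest values, at 1.75 on both RPA12 deletion arrays against 5.18.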

How the data were processed

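The authors deposited one log2 value per probe set and array, made with RMA in Affymetrix Expression Console according to the submitters' processing notes. Versions, genome build and the arrays run together were not given in the sources used here. Each array took 6 µg of total RNA, labelled with biotin, per the labels' protocols. RMA puts the arrays of a run on one intensity distribution and compresses differences near the floor. The number of arrays limits the precision.

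Of 10928 probe sets, 5498 with 1 S. cerevisiae gene symbol were tested, and 1746 for another yeast species gave the background level. Symbols were updated through gene identifiers for 12 probe sets with the RefSeq table of assembly R64. Where a gene had several probe sets, that with the highest mean was taken. Differences were tested in R 4.3.3 with limma 3.58.1 (moderated two-sided test by lmFit and eBayes, Benjamini-Hochberg over all tested probe sets), checked on simulated data. All simulated arrays had the same spread, taken from the gap between the RPA12 deletion arrays. The check thus does not cover a wild-type array that varies otherwise. The residual rests on the 2 RPA12 deletion arrays (1.3 degrees of freedom after moderation), which were equal for 2431 probe sets, and the lone wild-type array is assumed to vary alike. Ties let limma call tiny differences, hence the 2-fold condition.

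The genes and lists were chosen with earlier results of these data known. All 10 genes, the isozymes, shared steps, regulators, opposed glycolytic steps and strain markers could be named, and in each other list the 4 genes with the largest differences. TDH2, GID10 and GID11 were not analysed here. Promoter motifs were planned and not analysed.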

Additional observations from a re-analysis of the deposited data

How the results depend on the processing

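The 10 genes fell under every setting tried: another round of quantile normalization, median centring, either condition of the call alone, a trended and robust prior, a background filter, and, chosen after seeing the data, a fit without ties. With 1 RPA12 deletion array left out there is no test, and all 10 remained at least 2-fold lower. None of 70 recomputed values of the 10 genes changed sign, and none with a test lost its call. Their median difference was -3.43 after quantile normalization and -3.62 after median centring, which moved the median of all probe sets by -0.15 and -0.25. These shifts are small beside the smallest of the 10 differences, -1.91 for CAT8, so the rescalings could hardly undo the fold condition. Every setting kept the same wild-type array, and none scaled by the spike-ins. The highest limma adjusted p of the 10 was 0.0410 with the trended, robust prior, and 1.86e-84 without ties, where limma pooled the spread fully, so the size of these p-values depends on how ties are treated. By adjusted p alone, 1634 probe sets were lower and 2773 higher in place of 562 and 1310, and in the pathway lists outside the 10 genes, 56 of 73 were lower and 11 higher in place of 34 and 6. Of 499 recomputed values of those 73 genes, 5 lost the call, 16 gained it and none changed sign with a call. Values without 1 RPA12 deletion array, which have no test, were not counted as lost or gained. None of the 10 genes had another probe set to try, and the promoter motifs were not run. No paired analysis was possible because the wild-type group has a single array with no replicate number. All 10 genes lay well above background, so dim signal did not limit them.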
